A study of Homo sapiens with 9 samples.

Results

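Breast cancer stem cell markers were read in MDA-MB-231 cells depleted of glyoxalase 1 (GLO1), the enzyme that detoxifies methylglyoxal, a reactive by-product of glycolysis. The set was a fixed list of 10 genes, taken by name from the 26364 genes counted in each library, namely CD24, CD44, PROM1, PROM2, ALDH1A1, ALDH1A3, SALL4, SOX9, KLF4 and MYC. They were listed by name, with no threshold on a measured value, and were chosen with earlier results of these data known. MDA-MB-231 is a human triple-negative breast cancer line. The study stably silenced GLO1 with short hairpin RNAs in clones named shGLO1#1 and shGLO1#2 and set them against 1 clone with a non-targeting hairpin, shNT, and 3 RNA libraries of each line were sequenced. Every condition was a single line, so a test here compares libraries within lines and says nothing of the variation among independently silenced lines. Both clones were set against the same 3 shNT libraries.

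Cancer stem cells are a tumour subpopulation defined by function, the ability to start and sustain a tumour, and are usually recognised by surface proteins and enzyme activity. In breast cancer the classical phenotype is CD44-high and CD24-low, and a separate, more epithelial population is found by aldehyde dehydrogenase activity. Basal-like lines of mesenchymal character, MDA-MB-231 among them, are mostly CD44-high and CD24-low, so the markers do not mark a rare fraction there. Transcription factors such as SOX9, KLF4, SALL4 and MYC are linked to progenitor state and to reprogramming.

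The sequences upstream of CD24, PROM2, ALDH1A3 and KLF4 are shown because these markers had higher mRNA in at least 1 clone and because their windows differ in base composition. Each is the 250 bases 5′ of an annotated start in the RefSeq promoter table (GRCh38.p14), written 5′ to 3′ on the strand of the gene. Capitals mark every match on either strand to any of 5 short motifs. The letters searched were GGGCGG for the GC box and CACGTG for the E-box, which MYC and its partners bind. For the AP-1 site, bound by FOS and JUN proteins, they were TGACTCA. The CCAAT box was searched by its own letters and the TATA box, a core promoter element, as TATAAA. CD24 lies at chr6:106975628-106975877 on the minus strand, and this is 1 of its 3 windows. PROM2 lies at chr2:95274199-95274448 on the plus strand, ALDH1A3 at chr15:100879581-100879830 on the plus strand and KLF4 at chr9:107489770-107490019 on the minus strand.
CD24: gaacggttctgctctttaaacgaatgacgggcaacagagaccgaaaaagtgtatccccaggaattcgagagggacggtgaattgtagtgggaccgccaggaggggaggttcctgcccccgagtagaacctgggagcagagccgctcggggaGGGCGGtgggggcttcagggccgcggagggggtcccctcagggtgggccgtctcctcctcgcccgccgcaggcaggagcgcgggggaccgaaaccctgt
PROM2: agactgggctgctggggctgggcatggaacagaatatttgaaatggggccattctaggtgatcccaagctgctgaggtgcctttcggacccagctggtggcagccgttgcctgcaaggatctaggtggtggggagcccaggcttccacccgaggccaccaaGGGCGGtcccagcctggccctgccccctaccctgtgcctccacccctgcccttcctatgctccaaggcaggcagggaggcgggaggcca
ALDH1A3: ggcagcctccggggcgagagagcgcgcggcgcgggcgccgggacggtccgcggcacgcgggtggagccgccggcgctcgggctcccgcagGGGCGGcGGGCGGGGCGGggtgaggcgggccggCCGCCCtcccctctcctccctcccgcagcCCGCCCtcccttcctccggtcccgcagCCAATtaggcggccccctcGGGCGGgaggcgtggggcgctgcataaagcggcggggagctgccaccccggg
KLF4: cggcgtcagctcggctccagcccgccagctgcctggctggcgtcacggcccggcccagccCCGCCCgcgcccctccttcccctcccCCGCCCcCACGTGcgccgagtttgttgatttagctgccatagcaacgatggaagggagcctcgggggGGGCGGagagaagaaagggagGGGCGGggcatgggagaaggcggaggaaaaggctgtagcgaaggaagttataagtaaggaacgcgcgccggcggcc
The ALDH1A3 window held 6 GC boxes, 2 of them overlapping in 1 run of capitals, and 1 CCAAT box. The KLF4 window held 4 GC boxes and 1 E-box, and those of CD24 and PROM2 held 1 GC box each. No AP-1 site or TATA box was found in these 4 windows. Among 35116 windows of this length in the table, 42.6% held a GC box, 6.34% an E-box, 4.20% an AP-1 site, 32.0% a CCAAT box and 10.7% a TATA box. The bases G and C made up 82.4% of the ALDH1A3 window, 69.2% of KLF4, 65.6% of CD24 and 64.8% of PROM2, against a median of 58.0% over all windows. These matches describe the letters only.

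The 9 libraries held 15314238 to 18495576 counts on genes, and 16329 to 17067 genes were detected in each. GLO1 checked the labels. It had 64.2, 65.9 and 65.8 CPM (counts scaled to library size) in shGLO1#1, 14.5, 15.5 and 14.0 CPM in shGLO1#2 and 323, 312 and 317 CPM in shNT (replicates 1, 2 and 3). The markers of this mesenchymal line were abundant and did not move together. VIM stood at 3156 ± 162 CPM in shGLO1#1, 4142 ± 233 CPM in shGLO1#2 and 3328 ± 282 CPM in shNT (SD, n = 3 each). MSN was at 1599 ± 31.9 CPM in shGLO1#1, 953 ± 27.9 CPM in shGLO1#2 and 1315 ± 63.6 CPM in shNT. CAV1 was at 749.7 ± 90.0 CPM in shGLO1#1, 584 ± 70.8 CPM in shGLO1#2 and 691 ± 34.9 CPM in shNT, and AXL at 1292 ± 113 CPM in shGLO1#1, 1434 ± 68.4 CPM in shGLO1#2 and 1364 ± 46.1 CPM in shNT. Of the markers it should lack or hold low, the epithelial EPCAM was at 13.2 ± 0.580 CPM in shGLO1#1, 10.7 ± 1.06 CPM in shGLO1#2 and 14.6 ± 0.755 CPM in shNT. The epithelial cadherin CDH1 was at 1.81 ± 0.329 CPM in shGLO1#1 and 0.515 ± 0.0283 CPM in shGLO1#2, and higher in shNT, at 26.1 ± 9.02 CPM. The progesterone receptor PGR was at 0.137 ± 0.125 CPM in shGLO1#1 and 0.179 ± 0.00992 CPM in shGLO1#2, with no count in shNT. The oestrogen receptor ESR1 was under 1 CPM in every condition, at 0.255 ± 0.153 CPM in shGLO1#1, 0.0579 ± 0.0559 CPM in shGLO1#2 and 0.0856 ± 0.104 CPM in shNT. Of 9 leukocyte markers, the B cell gene MS4A1 had no count in any library, and the summed level was 143 to 154 CPM in shGLO1#1, 141 to 162 CPM in shGLO1#2 and 125 to 131 CPM in shNT, most of it CD68 (114 to 156 CPM), which cancer cells also express. The 10 fibroblast and endothelial markers summed to 17.6 to 21.3 CPM in shGLO1#1, 19.6 to 27.9 CPM in shGLO1#2 and 19.6 to 25.7 CPM in shNT. Their part in the results was not tested.

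Of the 10 markers, 8 had enough counts to be tested, and PROM1 and ALDH1A1 did not. PROM2 reached the minimum in all 3 libraries of shGLO1#1 alone and SALL4 in all 3 of shGLO1#2 alone, so counts over the tested markers are a description. Calling a gene took an adjusted p under 0.05 together with a log2 fold change beyond 1 in either direction. In shGLO1#1 against shNT, 2 of 8 markers were called, CD24 and PROM2, both higher, where 8.73% of all 13704 tested genes were called. By adjusted p alone 5 markers were higher and 0 lower, where 45.7% of all genes passed. At an unadjusted p under 0.05 these were also 5 and 0, and DESeq2 called 0 lower. In shGLO1#2 against shNT, 2 of 8 were called, CD24 and SALL4, both higher, where 7.68% of all genes were called. By adjusted p alone 6 were higher and 1 lower, where 38.1% of all genes passed. Across the 8 markers the median log2 fold change was 0.82 in shGLO1#1 and 0.86 in shGLO1#2, beside 0.0013 and 0.0012 over all tested genes. Because the markers were chosen with earlier results of these data known, these counts and medians only describe the set.

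**Figure D1:**
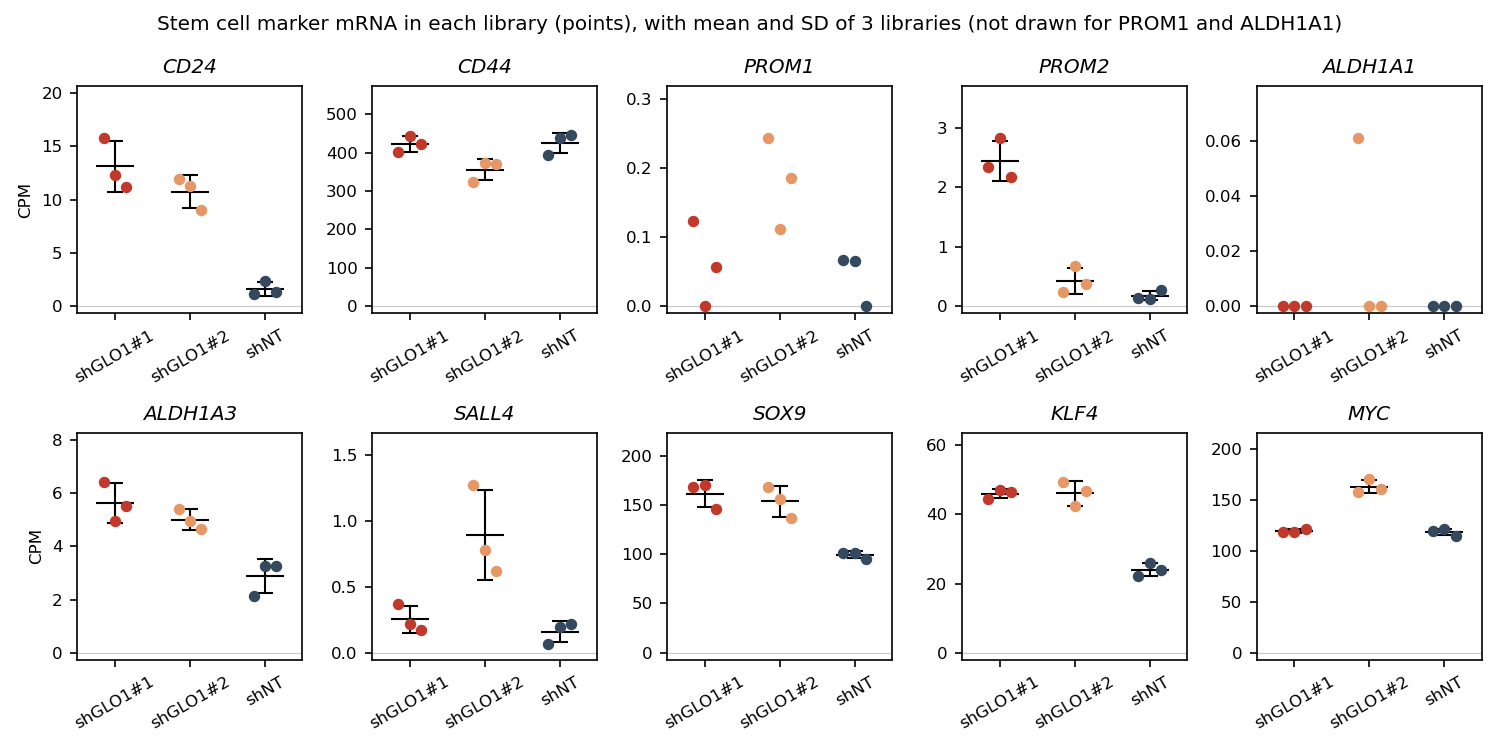
mRNA of the 10 stem cell markers in CPM (vertical axes, each from 0), by line. Points are single libraries, and bars and whiskers are the mean and SD of 3 libraries, not drawn for PROM1 and ALDH1A1, which had at most 4 counts in a library. CD24, ALDH1A3, SOX9 and KLF4 lay above every shNT library in all 6 libraries of the clones, PROM2 was high in shGLO1#1 and SALL4 and MYC were high in shGLO1#2. The share of all genes whose libraries separate like this, here and in the text, was not counted. By adjusted p alone, a different measure, 45.7% of all genes passed in either direction in shGLO1#1 and 38.1% in shGLO1#2 against shNT.

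CD24, a small glycosylated protein held on the cell surface by a lipid anchor, was higher in both clones. Its mRNA stood at 15.8, 12.3 and 11.2 CPM in the shGLO1#1 libraries, 11.9, 11.3 and 8.99 CPM in shGLO1#2 and 1.14, 2.35 and 1.38 CPM in shNT. The lowest library of either clone was well above the highest of shNT. The rise was 8.07-fold in shGLO1#1 (log2 fold change 3.01, SE 0.23, adjusted p = 2.65e-07) and 6.62-fold in shGLO1#2 (log2 fold change 2.73, SE 0.23, adjusted p = 1.07e-06, edgeR's quasi-likelihood test). With any 1 library left out, the log2 fold change stayed between 2.83 and 3.36 in shGLO1#1 and between 2.54 and 3.07 in shGLO1#2. In bulk RNA, more cells with CD24 and more CD24 mRNA per cell cannot be told apart. Reads of CD24 can be shared with processed copies. Their GENCODE v29 transcript entries hold 219 to 243 bases, where the CD24 transcript aligned to them holds 2513. Genome sequence beyond these entries was not aligned, so how much of the CD24 transcript the copies share was not tested. The copy CD24P4 matched the CD24 transcript in 241 of 243 bases (99.2%), CD24P2 in 89.0% and CD24P1 in 80.2% of the bases aligned, and the sources used here do not say which copy the symbol covers in the hg19 annotation.

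CD44, the hyaluronan receptor, was abundant in all lines. It was measured at 402, 443 and 423 CPM in shGLO1#1, 324, 372 and 370 CPM in shGLO1#2 and 394, 437 and 445 CPM in shNT. The shGLO1#1 and shNT libraries overlapped, and the 3 shGLO1#2 libraries lay below all others. Log2 fold changes against shNT were -0.01 in shGLO1#1 (SE 0.07, adjusted p = 0.933, edgeR), a difference whose direction changed with the scaling, and -0.26 in shGLO1#2 (SE 0.07, adjusted p = 0.00681, edgeR). The shGLO1#2 change passed the adjusted p and fell short of the fold change limit.

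Because the phenotype is defined by both proteins, CD24 was also set against CD44 within each library. There were 39.2, 27.8 and 26.5 CD24 counts per 1000 CD44 counts in shGLO1#1, 36.8, 30.3 and 24.3 in shGLO1#2 and 2.89, 5.37 and 3.11 in shNT. The ratio averaged 31.2 ± 6.997 in shGLO1#1, 30.5 ± 6.23 in shGLO1#2 and 3.79 ± 1.37 in shNT (SD, n = 3), which is 8.23-fold and 8.04-fold the shNT mean. Neither clone overlapped shNT, while the clones overlapped each other, and the two-sided exact permutation test gave p = 0.1 for each clone, the smallest that 3 libraries against 3 allow. CD24 counts remained far below CD44 counts in all libraries.

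**Figure D2:**
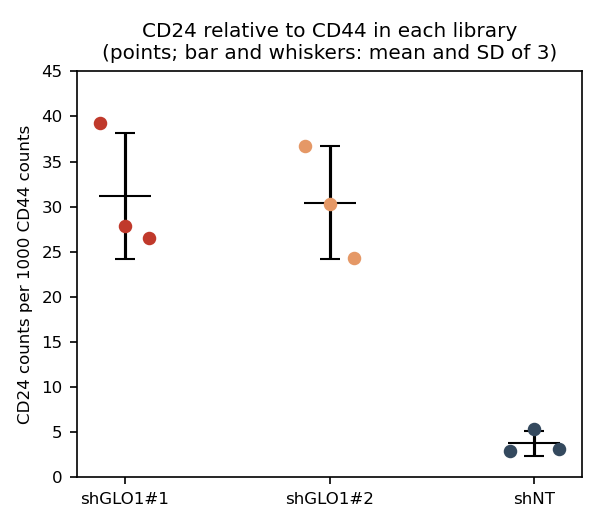
CD24 counts per 1000 CD44 counts (vertical axis) in each library, by line. Points are libraries, and the bar and whiskers are the mean and SD of 3. The 6 libraries of the clones lay between 24.3 and 39.2 and the 3 shNT libraries between 2.89 and 5.37.

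The prominins are pentaspan proteins of membrane protrusions, and PROM1 (CD133) is the one used as a stem cell marker. PROM1 had 2, 0 and 1 counts in shGLO1#1, 4, 2 and 3 counts in shGLO1#2 and 1, 1 and 0 counts in shNT. Summed over libraries, the ratio to shNT was 1.39 in shGLO1#1 (3 against 2 counts, exact 95% interval 0.159 to 16.6) and 4.31 in shGLO1#2 (9 against 2 counts, 0.892 to 41.0), both intervals covering counting error only and including 1. A difference was not detectable at this depth.

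PROM2, its paralogue in epithelial cells, was higher in shGLO1#1. Its mRNA stood at 2.34, 2.83 and 2.166 CPM in shGLO1#1, 0.243, 0.670 and 0.372 CPM in shGLO1#2 and 0.134, 0.130 and 0.277 CPM in shNT. All shGLO1#1 libraries lay above all others, while shGLO1#2 and shNT overlapped and rested on 4 to 12 and 2 to 5 counts a library. The rise in shGLO1#1 was 12.7-fold (log2 fold change 3.67, SE 0.38, adjusted p = 4.83e-06, edgeR). PROM2 reached the count minimum in all libraries of shGLO1#1 alone, and the filter favours a higher value there. For shGLO1#2 the estimate was 1.19 on the log2 scale (SE 0.53, adjusted p = 0.0942, edgeR), and it was called without shGLO1#2 replicate 1 (1.48, adjusted p = 0.0469) and in no other alternative. Leaving out single libraries moved this value between 0.71 and 1.67.

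ALDH1A1 and ALDH1A3 are retinaldehyde dehydrogenases, which make retinoic acid and carry much of the aldehyde dehydrogenase activity used to sort stem-like cells. ALDH1A1 had 1 count in shGLO1#2 replicate 1 and none elsewhere. A count of 0 over 3 libraries allows up to 0.0575 CPM in shGLO1#1 and 0.0621 CPM in shNT (3 counts). ALDH1A3, in breast cancer lines the isoform more often tied to that activity, was measured at 6.41, 4.95 and 5.53 CPM in shGLO1#1, 5.42, 4.97 and 4.65 CPM in shGLO1#2 and 2.15, 3.26 and 3.26 CPM in shNT. All 6 libraries of the clones were above all 3 of shNT. Log2 fold changes were 0.95 in shGLO1#1 (SE 0.18, adjusted p = 8.39e-04, edgeR) and 0.78 in shGLO1#2 (SE 0.19, adjusted p = 0.00431, edgeR), short of the fold change limit. In shGLO1#1 it passed that limit without shNT replicate 2 (1.03), without shNT replicate 3 (1.05) and without shGLO1#1 replicate 2 (1.04).

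SALL4, a zinc finger factor of pluripotent cells that is silent in most adult tissue, was higher in shGLO1#2 and rested on few counts. Its libraries held 6, 4 and 3 counts in shGLO1#1, 21, 14 and 10 counts in shGLO1#2 and 1, 3 and 4 counts in shNT. The level was 0.370, 0.217 and 0.171 CPM in shGLO1#1, 1.28, 0.781 and 0.620 CPM in shGLO1#2 and 0.0672, 0.196 and 0.221 CPM in shNT. The shGLO1#2 libraries lay above all others, and shGLO1#1 overlapped shNT. The rise in shGLO1#2 was 5.21-fold (log2 fold change 2.38, SE 0.49, adjusted p = 0.00165, edgeR), and the adjusted p stayed between 0.00149 and 0.00882 when single libraries were left out. SALL4 reached the count minimum in all libraries of shGLO1#2 alone, and the filter favours a higher value there. The shGLO1#1 estimate was 0.57 on the log2 scale (SE 0.63, adjusted p = 0.486, edgeR).

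SOX9, an HMG box factor of mammary progenitors, and KLF4, a zinc finger factor used in reprogramming to pluripotency, were higher in both clones by less than the fold change limit. SOX9 stood at 168, 170 and 146 CPM in shGLO1#1, 168, 156 and 137 CPM in shGLO1#2 and 101, 101 and 95.2 CPM in shNT. Every library of the clones was above every shNT library. Log2 fold changes were 0.70 in shGLO1#1 (SE 0.08, adjusted p = 8.89e-06, edgeR) and 0.63 in shGLO1#2 (SE 0.08, adjusted p = 2.84e-05, edgeR). The antisense gene SOX9-AS1 overlaps SOX9 and cannot be separated without strand, and it had 1.28 ± 0.492 CPM in shGLO1#1, 1.72 ± 0.693 CPM in shGLO1#2 and 1.11 ± 0.440 CPM in shNT.

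KLF4 was measured at 44.5, 47.0 and 46.5 CPM in shGLO1#1, 49.2, 42.3 and 46.6 CPM in shGLO1#2 and 22.1, 26.0 and 24.1 CPM in shNT. Again the clones and shNT did not overlap. The rise was 1.91-fold in both (log2 fold change 0.94, SE 0.08; adjusted p = 9.68e-07 in shGLO1#1 and 1.34e-06 in shGLO1#2, edgeR). In shGLO1#2 it passed the fold change limit, at a log2 fold change of 1.00, without shGLO1#2 replicate 2.

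MYC, a basic helix-loop-helix factor that drives growth and ribosome production, was higher in shGLO1#2. Its mRNA was 119, 118 and 122 CPM in shGLO1#1, 159, 171 and 161 CPM in shGLO1#2 and 120, 122 and 115 CPM in shNT. The shGLO1#2 libraries lay above all others, and shGLO1#1 and shNT overlapped. Log2 fold changes were 0.46 in shGLO1#2 (SE 0.05, adjusted p = 1.02e-05, edgeR), short of the fold change limit, and 0.01 in shGLO1#1 (SE 0.05, adjusted p = 0.842, edgeR).

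**Figure D3:**
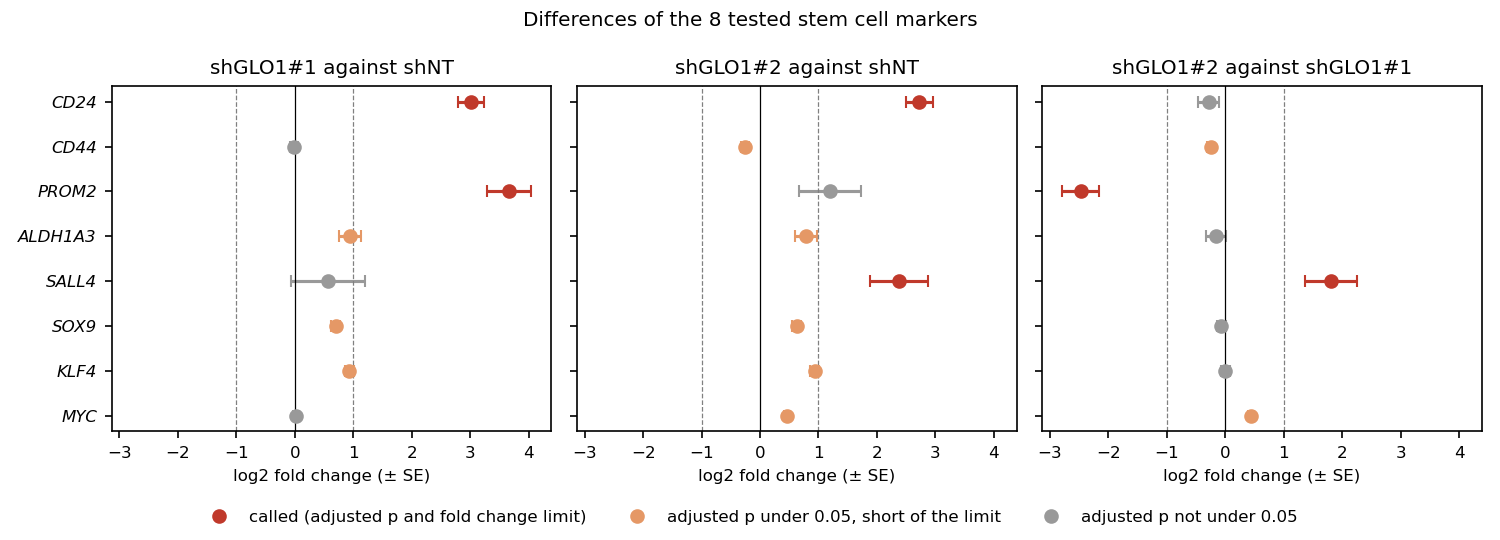
Log2 fold change (horizontal axis) of the 8 tested markers, with whiskers of 1 SE, in shGLO1#1 against shNT, shGLO1#2 against shNT and shGLO1#2 against shGLO1#1. Dashed lines mark the fold change limit. CD24 passed it in both clones, at 3.01 and 2.73, and PROM2 and SALL4 lay on opposite sides of 0 between the clones, at -2.47 and 1.81.

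Compared directly, the clones differed in 4 of the 8 markers by adjusted p alone, 2 higher and 2 lower in shGLO1#2, where 46.5% of all genes passed. With the fold change limit 2 of 8 were called, where 7.09% of all genes were. Both reached the count minimum in all libraries of 1 line only, which favours these calls. SALL4 was higher in shGLO1#2 than in shGLO1#1 (log2 fold change 1.81, SE 0.44, adjusted p = 0.00427) and PROM2 lower (-2.47, SE 0.32, adjusted p = 3.11e-05, edgeR). MYC was higher (0.45, SE 0.05, adjusted p = 1.01e-05) and CD44 lower (-0.25, SE 0.07, adjusted p = 0.00681, edgeR). For CD24 the difference was -0.29 (SE 0.17, adjusted p = 0.194), for ALDH1A3 -0.16 (SE 0.17, adjusted p = 0.455), for SOX9 -0.07 (SE 0.08, adjusted p = 0.474) and for KLF4 0.00 (SE 0.08, adjusted p = 0.995, edgeR), and none of these passed.

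Levels were ordered between genes on CPM per kilobase of GENCODE v29 exons, an annotation of another build than the files. In shGLO1#1 this level was 69.3 ± 3.36 for CD44, 41.0 ± 3.40 for SOX9, 40.0 ± 0.663 for MYC, 15.7 ± 0.445 for KLF4, 4.31 ± 0.781 for CD24, 1.04 ± 0.136 for ALDH1A3, 0.517 ± 0.0723 for PROM2 and 0.0486 ± 0.0200 for SALL4 (SD, n = 3). In shGLO1#2 it was 58.3 ± 4.41 for CD44, 54.4 ± 2.104 for MYC, 39.0 ± 3.99 for SOX9, 15.7 ± 1.20 for KLF4, 3.52 ± 0.506 for CD24, 0.924 ± 0.0710 for ALDH1A3, 0.172 ± 0.0659 for SALL4 and 0.0905 ± 0.0462 for PROM2. In shNT it was 69.7 ± 4.45 for CD44, 39.6 ± 1.12 for MYC, 25.2 ± 0.902 for SOX9, 8.20 ± 0.667 for KLF4, 0.533 ± 0.209 for CD24, 0.533 ± 0.118 for ALDH1A3, 0.0381 ± 0.0176 for PROM2 and 0.0310 ± 0.0159 for SALL4. Libraries of SOX9 and MYC overlapped in shGLO1#1, as did those of CD44 and MYC in shGLO1#2, and those of CD24 and ALDH1A3 in shNT. PROM2 and SALL4 overlapped in shGLO1#2 and in shNT. PROM1 and ALDH1A1 had the lowest means in each line and overlapped each other. PROM1 also overlapped PROM2 in shGLO1#2 and SALL4 in shNT. Part of the order turned when the longest transcript stood for the length. MYC was then above SOX9 in shGLO1#1 (50.7 against 41.0) and above CD44 in shGLO1#2 (69.1 against 62.0), and ALDH1A3 was above CD24 in shNT (0.737 against 0.646).

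**Figure D4:**
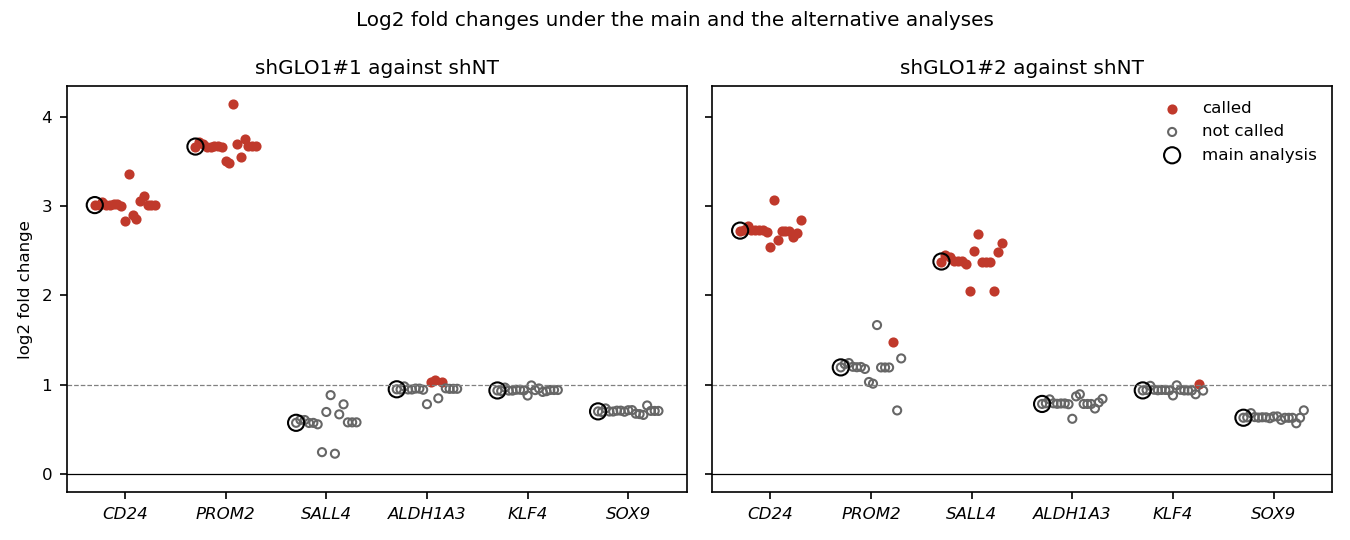
Log2 fold change (vertical axis) of 6 markers against shNT in each clone under the main analysis (ringed) and each alternative analysis (other points), with filled points called and open points not. The dashed line is the fold change limit. CD24 stayed called throughout, and ALDH1A3 in shGLO1#1 and PROM2 and KLF4 in shGLO1#2 moved across the call in some alternatives.

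For each called marker, the gene with the most similar log2 CPM profile over the 9 libraries was found among genes of at least 1 CPM. It was ADRBK2 for CD24 (Pearson r = 0.996 over 9 libraries), at 8.24 ± 0.364 CPM in shGLO1#1, 7.11 ± 0.948 CPM in shGLO1#2 and 1.96 ± 0.731 CPM in shNT. For PROM2 it was SPIN3 (r = 0.991) and for SALL4 it was TNFSF15 (r = 0.987). The 9 points share 3 lines, so the values describe these libraries.

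The list counts that follow stand beside 8.73% of all tested genes called in shGLO1#1 and 7.68% in shGLO1#2. Some listed genes reached the count minimum in all 3 libraries of 1 line only. The filter favours higher values in that line, so the counts are descriptions. These were KLF17, SOX21, TP63, NOTCH3 and MFNG in shGLO1#1, TFCP2L1, ALDH1L1, SOX6, SNAI1, HEYL, NRARP and VWF in shGLO1#2, and DLL4 in shNT. LGR5, ALDH3A1, PRLR and NOTCH4 also did not reach the minimum in all shNT libraries. For them the filter favours higher values in the clones. Log2 fold changes against shNT given in pairs are those of shGLO1#1 and then shGLO1#2. Of 16 tested other surface markers of breast stem-like cells, from a list of 20, shGLO1#1 had 1 called higher and 1 lower, and shGLO1#2 had 2 higher and 1 lower. The median log2 fold change was -0.15 in each clone. CXCR4, the receptor for CXCL12, fell to 0.799 ± 0.158 CPM in shGLO1#1 and 7.83 ± 0.502 CPM in shGLO1#2, against 46.7 ± 4.91 CPM in shNT (log2 fold change -5.85 and -2.57). NES, the intermediate filament of neural progenitors, rose in both (1.97 and 1.41), and B4GALNT1, the synthase of GM2 and GD2 gangliosides, rose in shGLO1#2 (1.52).

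Of 24 pluripotency and embryonic factors 9 were tested, of which 5 did not reach the count minimum in all shNT libraries (POU5F1, SALL2, TFCP2L1, MYCL and TET1). Each clone had 3 called higher and 0 lower (0 lower also by DESeq2 and at an unadjusted p under 0.05), a direction that this filter favours. SALL2, a paralogue of SALL4, rose in both clones, to 5.96 ± 1.07 CPM in shGLO1#1 and 2.31 ± 0.716 CPM in shGLO1#2, against 0.155 ± 0.139 CPM in shNT (log2 fold change 5.28 and 3.93). In shGLO1#2 the others were TFCP2L1, a factor of naive pluripotency (3.16), and MSI2, an RNA-binding protein of progenitors (2.31). In shGLO1#1 they were the chromatin protein HMGA2 (1.18) and the DNA demethylase TET1 (1.79), both named after their values were seen. Among 6 tested of 18 SOX genes other than SOX9, of which SOX6 and SOX21 did not reach the minimum in all shNT libraries, SOX21 (3.15) and SOX4 (1.67) were called higher in shGLO1#1 and SOX6 (1.17) in shGLO1#2, with 0 lower in either clone, by DESeq2 and at an unadjusted p under 0.05 as well. The SOX6 call ended without shNT replicate 1 (0.96).

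KLF genes other than KLF4 gave 13 tested members, with 4 called higher and 1 lower for shGLO1#1, and 2 called higher and 0 lower for shGLO1#2, where 2 were lower at an unadjusted p under 0.05 and 0 were called lower by DESeq2. KLF13 rose in both clones (log2 fold change 2.23 and 2.46), KLF17 rose in shGLO1#1 (2.03) and KLF15 fell there (-1.54). KLF7 in shGLO1#1 (1.03) and KLF9 in both (1.20 and 1.15), named after their values were seen, were the rest. The KLF7 call ended without shGLO1#1 replicate 2 (0.85). The KLF9 calls ended without shNT replicate 3 (0.97 in shGLO1#1 and 0.93 in shGLO1#2), and in shGLO1#2 also without shGLO1#2 replicate 1 (0.88).

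Aldehyde dehydrogenases outside the marker set gave 13 tested members, with 1 called higher and 1 lower for shGLO1#1, and 3 called higher and 0 lower for shGLO1#2, where 6 were lower at an unadjusted p under 0.05 and 0 were called lower by DESeq2. ALDH3A1, which oxidises aromatic and lipid aldehydes, rose in both clones (log2 fold change 2.08 and 1.86). ALDH5A1, of GABA breakdown (1.48), and ALDH1L1, of folate metabolism (1.45), rose in shGLO1#2, and ALDH4A1, of proline breakdown, fell in shGLO1#1 (-1.15) and was named after its value was seen. In the retinoic acid pathway, fed by the ALDH1A enzymes, 11 genes were tested. CYP26B1, which degrades retinoic acid, rose in shGLO1#1 (1.12), as did the retinoid-responsive RARRES3 (1.65). DHRS3, which reduces retinaldehyde, fell in both clones (-1.45 and -3.28), and 0 genes of the pathway were called higher in shGLO1#2 by edgeR or DESeq2, where 4 were higher at an unadjusted p under 0.05.

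Of 30 MYC target genes, most of them for ribosome production and nucleotide synthesis, 29 were tested. EIF4A1 had no count in any library, and the reason was not tested. With the fold change limit 0 were called in any comparison by edgeR's quasi-likelihood test, and 0 by DESeq2. By adjusted p alone, shGLO1#1 had 2 higher and 12 lower, and shGLO1#2 had 8 higher and 4 lower (2 and 13, and 10 and 4, at an unadjusted p under 0.05), beside the 45.7% and 38.1% of all genes that passed the adjusted p. Between the clones 20 of 29 were higher in shGLO1#2 and 0 lower (21 and 0 unadjusted). Over all 13704 tested genes 46.5% passed in either direction, 3126 of them higher and 3243 lower in shGLO1#2. The list had a median log2 fold change of 0.30 beside -0.01 over all genes. Summed over the list, the level was 9117 to 10393 CPM in shGLO1#2, 7661 to 8426 CPM in shGLO1#1 and 8747 to 9479 CPM in shNT. Of 12 tested MYC partners and antagonists, MLXIPL, a glucose-responsive factor, was the one called, higher in both clones (1.88 and 1.58).

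Around CD44, 7 genes of hyaluronan synthesis and breakdown were tested. The synthase HAS2 rose in both clones, to 12.7 ± 1.63 CPM in shGLO1#1 and 25.2 ± 2.34 CPM in shGLO1#2, against 4.51 ± 1.46 CPM in shNT (log2 fold change 1.48 and 2.47). CEMIP, needed for hyaluronan breakdown, was at 27.4 ± 6.29 CPM in shGLO1#1, 1.32 ± 0.422 CPM in shGLO1#2 and 8.05 ± 0.767 CPM in shNT, higher in shGLO1#1 (1.77) and lower in shGLO1#2 (-2.60). Of 17 tested genes of CD44 splicing and processing, ESRP2, an epithelial splicing factor, fell in both clones (-1.61 and -1.10), and MMP14, a membrane protease that cleaves CD44, rose in shGLO1#1 (1.01). The ESRP2 call in shGLO1#2 ended without shNT replicate 1 (-0.99) and the MMP14 call without shNT replicate 3 (0.99) or shGLO1#1 replicate 2 (0.97).

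Lineage markers showed where the lines stood beside the stem cell markers. Of 13 tested luminal and luminal progenitor markers, shGLO1#1 had 3 called higher and 2 lower, and shGLO1#2 had 1 called higher and 2 lower. E-cadherin (CDH1) fell to 1.81 ± 0.329 CPM in shGLO1#1 and 0.515 ± 0.0283 CPM in shGLO1#2, against 26.1 ± 9.02 CPM in shNT (log2 fold change -3.85 and -5.64). The mucin MUC1 fell in both clones (-1.08 and -3.57). The prolactin receptor PRLR was higher in both (1.67 and 2.81), and the trefoil factors TFF1 (1.60) and TFF3 (1.14) in shGLO1#1, all named after their values were seen. Calls in shGLO1#1 ended for MUC1 without shNT replicate 3 (-0.82), shGLO1#1 replicate 1 (-0.91) or shGLO1#1 replicate 2 (-0.99). They also ended for PRLR without shNT replicate 1 (1.24), shNT replicate 2 (1.33) or shGLO1#1 replicate 3 (1.32), and for TFF3 without shNT replicate 2 (0.93).

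Of 11 tested basal and mesenchymal markers, shGLO1#1 had 2 called higher and 1 lower. shGLO1#2 had 0 called by edgeR or DESeq2, where 3 were higher and 1 lower at an unadjusted p under 0.05. Fibronectin (FN1) rose to 569 ± 67.2 CPM in shGLO1#1, against 214 ± 24.9 CPM in shNT (log2 fold change 1.41), TP63, the basal p53 relative, rose (1.36) and smooth muscle actin (ACTA2) fell (-1.39). The TP63 call ended without shNT replicate 2 (1.04), shGLO1#1 replicate 2 (1.32) or shGLO1#1 replicate 3 (1.16), and with DESeq2 (1.37, adjusted p = 0.0537). In the Notch pathway, which acts in mammary progenitors, 2 of 19 tested genes were called higher and 1 lower in each clone. The ligand DLL4 fell in both (-1.70 and -2.08). The fringe glycosyltransferases MFNG (1.91) and LFNG (1.69) rose in shGLO1#1, and the targets HEYL (3.02) and NRARP (1.18) in shGLO1#2, LFNG and NRARP being named after their values were seen. The MFNG call ended without shNT replicate 3 (1.63), and the NRARP call without shNT replicate 1 (0.98), shNT replicate 3 (1.05) or shGLO1#2 replicate 1 (0.97), and with DESeq2 (1.19, adjusted p = 0.0629). Among the markers of other cell types, PTPRC fell in both clones (-2.79 and -1.71), as did LUM (-2.39 and -4.06), and VWF (2.47) and PDGFRB (1.10) rose in shGLO1#2, the PDGFRB call ending without shNT replicate 2 (0.86) or shGLO1#2 replicate 1 (0.88).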

How the data were processed

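RNA of MDA-MB-231 cells was sequenced in 9 libraries, 3 per line. Per the labels and the study's methods, the authors used a TruSeq RNA kit, which does not mark strand, bcl2fastq 2.17, TopHat2 2.1.1 on hg19 and HTSeq. The sources used here give no HTSeq version, annotation or strand setting. The authors deposited raw counts per gene symbol. Between 77.1% and 79.5% of counted alignments lay on genes, and the 5 summary rows of HTSeq were left out.

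The analysis ran edgeR 4.0.16 under R 4.3.3. The filter filterByExpr, at a minimum count of 10 and a minimum total of 15, left 13704 of 26364 genes. TMM factors were 0.972 to 1.04. One quasi-likelihood model of all 9 libraries gave 3 comparisons, adjusted by Benjamini and Hochberg over all tested genes. Each SE was taken as the size of the log2 fold change over the root of its F statistic. Replicates are separate libraries of a line, and no pair was a copy (chi-square over its degrees of freedom was 3.08 to 8.49). Replicate numbers may pair libraries across lines. For shGLO1#2 and shNT, deviations from line means correlated at 0.21, 0.19 and 0.31 between libraries of the same number. Libraries of unlike number were not compared, so these values cannot establish pairing. The main model and the permutation test held no replicate term, so their p-values leave any such pairing out. A replicate block was run as an alternative. For shGLO1#1 and shNT the deviations correlated at -0.03, 0.06 and 0.25, and for shGLO1#2 and shGLO1#1 at 0.20, 0.07 and 0.34. Alternatives were DESeq2 1.42.0, other scalings and filters, the 6 libraries compared alone, a replicate block and each library left out. The script was tested on simulated data.

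The markers and lists were chosen with earlier results of these data known. The text names all 10 markers, up to 3 members of each list called in a clone against shNT with the largest change, the nearest profile of each called marker, and GLO1. Some genes of the lists are not reported here and are left out of the list counts. CD24 copies were aligned with BLAST 2.17.0, exact intervals are at 95%, and floors are 3 counts.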

Additional observations from a re-analysis of the deposited data

Results flagged for a closer look

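The effects of the clones differed by the direct test between them, with edgeR's quasi-likelihood test on all 9 libraries, for 4 of 8 markers by adjusted p alone, where 46.5% of all genes passed. As log2 fold changes of shGLO1#2 over shGLO1#1, these were PROM2 (-2.47), SALL4 (1.81), MYC (0.45) and CD44 (-0.25), and MYC and CD44 fell short of the fold change limit. Among the listed genes called in a clone against shNT, the same test with that limit called TFCP2L1 (3.87), CXCR4 (3.27), HEYL (2.52), PDGFRB (2.1), B4GALNT1 (2.09), ALDH1L1 (1.94), VWF (1.94), MSI2 (1.7), KLF15 (1.53), ALDH5A1 (1.37), PRLR (1.14), PTPRC (1.08), NRARP (1.06), SOX6 (1.06) and ACTA2 (1.03) higher in shGLO1#2. It called CEMIP (-4.36), SOX21 (-2.69), MUC1 (-2.49), KLF17 (-2.21), DHRS3 (-1.83), CDH1 (-1.79), LUM (-1.67), MFNG (-1.36), SALL2 (-1.36), TFF1 (-1.28), SOX4 (-1.27), LFNG (-1.2) and RARRES3 (-1.04) lower in shGLO1#2. With this limit 7.09% of all tested genes were called between the clones. The listed genes were taken for a call against shNT, which favours a difference between the clones. TFCP2L1, HEYL, ALDH1L1, VWF, NRARP, SOX6 and SALL4 reached the count minimum in all 3 libraries of shGLO1#2 alone. SOX21, KLF17, MFNG and PROM2 did so in shGLO1#1 alone. The filter favours those directions, so the calls are descriptions. Some of these calls ended when 1 library was left out. With DESeq2, MFNG (adjusted p = 0.103), NRARP (adjusted p = 0.0731), SOX6 (adjusted p = 0.0515) and TFF1 (adjusted p = 0.0866) also missed the threshold. Without shGLO1#1 replicate 1 the ended calls were NRARP (0.97), PRLR (0.98) and PTPRC (0.93). Without shGLO1#1 replicate 2 they were ACTA2 (1.03, adjusted p = 0.0573), MFNG (-1.28), PRLR (1.01), PTPRC (0.91) and SOX6 (0.92). Without shGLO1#1 replicate 3 they were ACTA2 (0.73), MFNG (-1.15), NRARP (0.81) and RARRES3 (-0.98). Without shGLO1#2 replicate 1 they were NRARP (0.85) and SOX6 (0.90), and without shGLO1#2 replicate 2 ACTA2 (0.98), MFNG (-1.25), RARRES3 (-0.80) and TFF1 (-0.84). Without shGLO1#2 replicate 3 they were MFNG (-0.96), PRLR (0.92) and PTPRC (0.89).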

How the results depend on the processing

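CD24 in both clones, PROM2 in shGLO1#1 and between the clones, and SALL4 in shGLO1#2 and between the clones stayed called in every alternative that tested them. PROM2 reached the count minimum in all 3 libraries of shGLO1#1 alone and SALL4 in those of shGLO1#2 alone. The filter favours their calls, so their staying called is a description. The number of markers called was 2 in each comparison. It was 1 in shGLO1#2 against shNT and 1 between the clones under a filter of a mean of at least 1 CPM, which left SALL4 untested. With each library left out it was 2 to 3 in shGLO1#1, 2 to 3 in shGLO1#2 and 2 throughout between the clones. With a replicate block the number called stayed at 2 in each comparison, and over all genes it was 1217 in shGLO1#1, 1076 in shGLO1#2 and 989 between the clones, against 1197, 1052 and 971 without the block. Over all genes and all alternatives the number called was 941 to 1427 in shGLO1#1, 785 to 1325 in shGLO1#2 and 745 to 1205 between the clones. Differences near 0 changed sign. CD44 in shGLO1#1 was 0.024 with upper-quartile factors, 6.1e-05 under the filter of 1 CPM and 1.8e-04 with the 6 libraries compared alone, and ran between -0.061 and 0.029 with each library left out. KLF4 between the clones was -0.0021 under the filter of 1 CPM and ran between -0.048 and 0.063 with each library left out. MYC in shGLO1#1 ran between -0.0046 and 0.030, and SOX9 between the clones between -0.14 and 0.0064, with each library left out. The cause was not tested. Depth limits PROM1, ALDH1A1, SALL4 and, outside shGLO1#1, PROM2.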
